A study of Mus musculus with 12 samples.

Results

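The nuclear genes for oxidative phosphorylation were chosen by symbol, as every row named as an Nduf, Sdh, Uqcr, Cyc1, Cox4 to Cox8 or Atp5 gene, which gave 84 of the 30743 genes in the table. By symbol, 35 were placed in complex I, 4 in complex II, 9 in complex III, 19 in complex IV and 17 in complex V. Ndufa4 was counted in complex IV, and 81 of the 84 are structural subunits. Cox7a2l, Atp5s and Atp5sl match by symbol but are not stable parts of a complex. RefSeq now names Atp5s Dmac2l and Atp5sl Dmac2, and both are counted in complex V by their older symbols only. Membership follows from the symbols alone.

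RNA had been sequenced from whole livers of 12 male C57BL/6 mouse fetuses at 15 ± 0.5 days post coitum (dpc). In the control group, 6 fetuses came from dams on a diet with 13.5% of its kilocalories from fat. In the HFD (high-fat diet) group, 6 came from dams on a diet with 60% of kilocalories from fat, and both diets had been given for 12 to 14 weeks. No allele or other treatment separated the groups, and the labels do not say which fetuses shared a dam. The table used here gives 1 average level per gene over the livers of both diets, so the values below have no standard deviation, and neither the diets nor single livers were compared.

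Oxidative phosphorylation makes most ATP in respiring cells. Complexes I and II pass electrons from NADH and succinate to ubiquinone, complex III passes them to cytochrome c, complex IV passes them to oxygen, and the proton gradient built by complexes I, III and IV drives ATP synthase, complex V. Each complex except II combines subunits encoded in the nucleus with subunits encoded in mitochondrial DNA. At this stage the fetal liver is the main site of blood formation and holds erythroid cells beside hepatoblasts.

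The labelled tissue was checked against markers of its cell types. Of 6 hepatocyte markers, 6 were at or above 10 CPM (reads of a gene per 1000000 counted), from Trf at 287 CPM to Alb at 63314 CPM. Of 6 erythroid markers analysed, 5 were at or above 10 CPM, led by Hba-a2 at 49707 CPM, while Alas2, the erythroid enzyme of heme synthesis, was listed at 0.704 CPM. Of 5 testis germ cell markers, 4 were at the lowest value, and Ddx4 stood at 0.203 CPM. Of 7 muscle markers, 3 were at or above 10 CPM, led by Acta1 at 55.0 CPM. Of 4 acinar markers, 1 was, Cela1 at 13.7 CPM. The summed level above the lowest value was 84.1 CPM for the muscle markers and 21.6 CPM for the acinar markers. In whole tissue, a lower share of a cell type and less RNA per cell cannot be told apart.

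The lowest value in the table was 0.152 CPM, shared by 11091 genes, and it is taken here as the value of a gene without counted reads. Levels of different genes are compared as CPM per kilobase of annotated exon. The 77 members above the lowest value had a median of 62.2 CPM per kilobase, against 0.456 for all genes above it with an annotated length. The medians of the 5 complexes were higher per kilobase of coding sequence, at 195, 426, 285, 270 and 75.4 CPM for complexes I to V. Of the 84 members, 55 (65.5%) reached 10 CPM, compared with 18.0% of the whole table, 68.4% of 76 mitochondrial ribosomal protein genes and 71.8% of 39 proteasome genes. Another 12 members lay between 1 and 10 CPM and 17 (20.2%) below 1 CPM. The share below 1 CPM was 66.9% in the whole table, 19.7% for mitochondrial ribosomal protein genes and 23.1% for proteasome genes. At the lowest value were 7 members (8.33%), compared with 36.1%, 10.5% and 2.56% of these sets, in the same order. The members together made up 1.58% of the summed CPM, and 0.731% came from complex V alone.

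**Figure D1:**
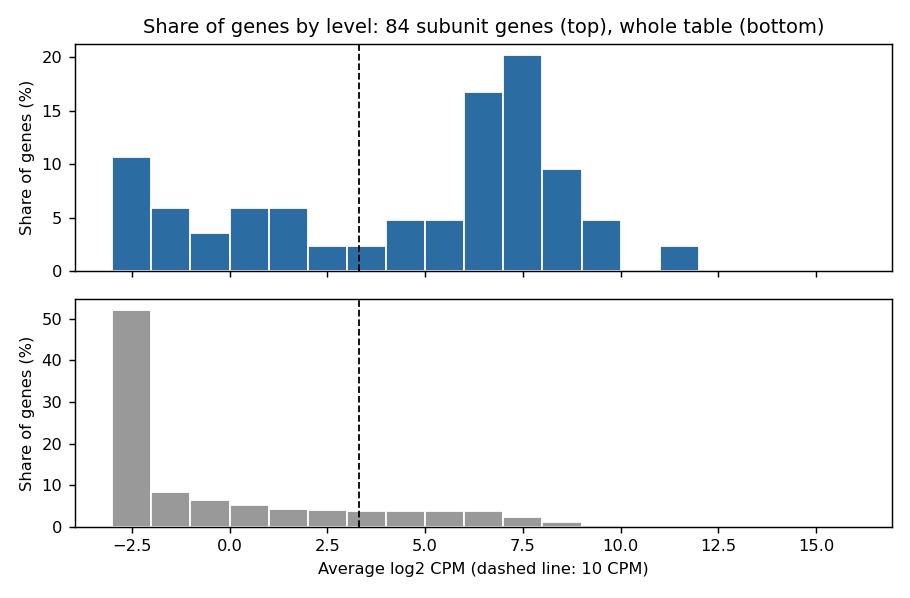
Share of genes (%) in bins of 1 log2 unit of average CPM, for the 84 subunit genes (top) and the 30743 genes of the table (bottom), with 10 CPM as the dashed line. The subunit genes are most frequent between 6 and 8 log2 CPM, with 29 of the 84 spread below 10 CPM, whereas 18.0% of the whole table reached that line.

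Complex II, succinate dehydrogenase, was the complex whose nuclear subunits were all well counted. Its level per kilobase was 379 CPM for Sdhd and 80.2 CPM for Sdhc, the membrane anchors. Sdha, the flavoprotein that oxidises succinate, stood at 164 CPM per kilobase, and Sdhb, its iron-sulphur partner, at 89.1 CPM per kilobase. The anchors differed 4.72-fold per kilobase of exon, and less per kilobase of coding sequence, at 977 CPM for Sdhd and 514 CPM for Sdhc. By that length, Sdha stood at 339 CPM and Sdhb at 236 CPM.

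In complex I, 27 of 35 members reached 10 CPM and the median of the 33 above the lowest value was 61.3 CPM per kilobase. The highest per kilobase were the accessory subunits Ndufa2 (266 CPM), Ndufb9 (235 CPM) and Ndufb11 (174 CPM). The lowest per kilobase among those at or above 1 CPM were Ndufs1 (0.159 CPM), Ndufa11 (1.10 CPM) and Ndufb4 (2.25 CPM). Among the 28 accessory subunits, 24 reached 10 CPM.

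Nuclear core subunits of complex I, which include those that carry the flavin and the iron-sulphur clusters, were listed at widely spread levels. Ndufv1, the NADH-binding flavoprotein, stood at 295 CPM, Ndufs7 at 121 CPM and Ndufs3 at 63.7 CPM. Ndufs1, the large iron-sulphur subunit, was listed at 1.28 CPM. Ndufv2, the partner of Ndufv1, was listed at 0.266 CPM, and Ndufs8 at the lowest value. Ndufv1 and Ndufv2 belong to the same module of the enzyme, and no ratio is given because Ndufv2 lay close to the lowest value. The accessory subunits Ndufs6 (0.235 CPM) and Ndufb2 (lowest value) were also below 1 CPM.

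**Figure D2:**
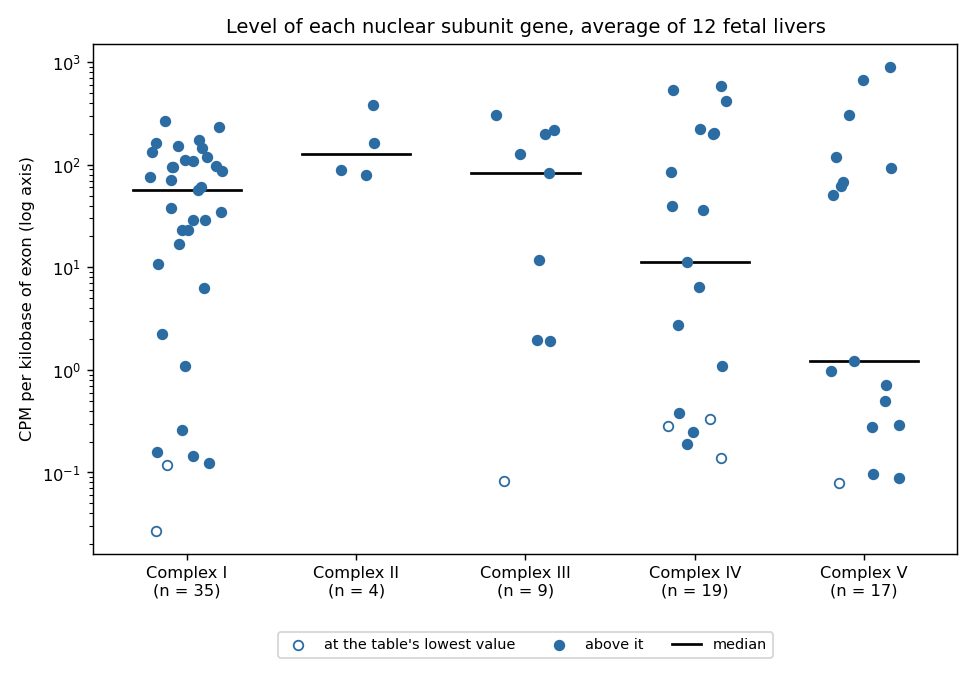
CPM per kilobase of exon (log axis) for each of the 84 genes, by complex, as the average of 12 livers; bars are medians over all members of a complex, and open points are genes at the lowest value of the table. All 4 genes of complex II lie above 80 CPM per kilobase, whereas complexes I, III, IV and V each spread from above 200 to below 1.

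In complex III, 6 of 9 members reached 10 CPM, and the 8 above the lowest value had a median of 105 CPM per kilobase. Uqcr10 stood at 303 CPM per kilobase, the Rieske iron-sulphur protein Uqcrfs1 at 217, and the core protein Uqcrc2 at 201. Cyc1, cytochrome c1, accepts electrons from the Rieske protein and was listed at 4.11 CPM, against 295 CPM for Uqcrfs1, a 113-fold difference per kilobase. Uqcr11 (1.95 CPM per kilobase) and Uqcrh (11.9 CPM per kilobase) were the other members at the low end, and Uqcrq was at the lowest value.

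In complex IV, cytochrome c oxidase, 10 of 19 members reached 10 CPM, with a median of 38.3 CPM per kilobase over the 16 above the lowest value, or 11.3 over all 19. This median depended on which members were counted, rising to 141 for those at or above 1 CPM and 200 for those at or above 10 CPM. The highest were Cox6a1 (583 CPM per kilobase), Cox8a (539) and Cox6b1 (420). Outside the families of alternative forms, the lowest was Cox7c at 11.3 CPM per kilobase. The spread in complex IV lay mostly within families in which genes encode alternative forms of 1 subunit.

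In complex V, 8 of 17 members reached 10 CPM, and the median was 25.9 CPM per kilobase over the 16 above the lowest value, or 1.23 over all 17. It was 56.3 for structural subunits alone, 62.2 for members at or above 1 CPM and 106 for those at or above 10 CPM. The members with the highest levels of all 84 per kilobase of exon were both catalytic-head (F1) subunits. Atp5b, the beta subunit, stood at 894 CPM per kilobase and Atp5a1, the alpha subunit, at 669 CPM per kilobase, a ratio of 1.34. Their ratio depended on the length used. Per kilobase of the longest transcript, Atp5b stood at 1977 CPM and Atp5a1 at 784 CPM. Per kilobase of coding sequence, they stood at 2386 and 1264 CPM. In the assembled head, alpha and beta are present in equal number, and the ratio of levels is not read against it. Atp5e, the epsilon subunit, stood at 119 CPM per kilobase. The gamma subunit Atp5c1 was listed at 0.555 CPM, and the delta subunit Atp5d at the lowest value, so 2 of 5 F1 genes were below 1 CPM. In the stalk and membrane part, 5 of 10 structural genes reached 10 CPM. Those below 1 CPM were Atp5l (0.566 CPM) and Atp5j (0.305 CPM). Atp5f1, subunit b, was listed at 2.04 CPM, or 0.497 CPM per kilobase. The members that are not stable parts of a complex were low, with Atp5s at 0.983, Atp5sl at 0.713 and Cox7a2l at 0.383 CPM per kilobase.

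Several subunits come in alternative forms, among them forms best known from liver and other tissues, from heart and skeletal muscle, or from testis. In 6 of 7 families, 1 gene was far above the others, and it was Cox6a1, Cox6b1, Cox7a2, Cox7b, Cox8a and Atp5g3. Per kilobase, Cox6a1 exceeded the muscle form Cox6a2 213-fold, and Cox7a2 exceeded the muscle form Cox7a1 34.8-fold. By the same measure, Cox8a exceeded the muscle form Cox8b 489-fold, or 793-fold with the lowest value subtracted. Cox8b was listed at 0.397 CPM, near the lowest value, so the size of its ratio is not interpreted. Cox6b2, Cox7b2 and Cox8c, known from testis, were at the lowest value, so no ratio is given. In the Cox4i family neither form was well counted: Cox4i1, the form of most tissues, was listed at 0.293 CPM and Cox4i2 at 0.197 CPM, and their order per kilobase changed with the length used, so it is not interpreted.

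**Figure D3:**
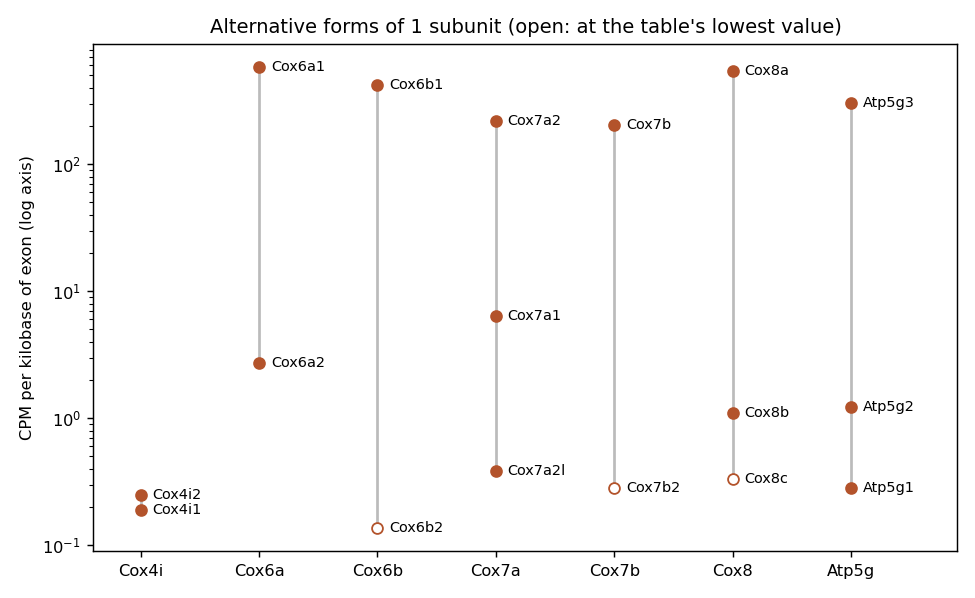
CPM per kilobase of exon (log axis) for the members of 7 families of alternative forms, average of 12 livers; open points are at the lowest value of the table. In 6 families 1 form lies above 200 CPM per kilobase and the others below 7, whereas both Cox4i forms lie below 0.3.

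The c subunit of ATP synthase, which forms the rotating ring, shows this contrast within a protein whose mature part is the same. Atp5g1, Atp5g2 and Atp5g3 lie on chromosomes 11, 15 and 2, and were listed at 1.38, 2.05 and 667 CPM. Per kilobase, Atp5g3 exceeded Atp5g2 250-fold and Atp5g1 1093-fold, the latter becoming 2655-fold per kilobase of the longest transcript. The gap to Atp5g1 was smaller per kilobase of coding sequence, at 1578 CPM for Atp5g3, 4.67 CPM for Atp5g2 and 3.37 CPM for Atp5g1. The last 78 residues of the reading frames were identical in the 3 genes, and the 234 bases that encode them are shown because reads are told apart by bases, not residues. Capitals mark bases that differ from Atp5g3, read from GENCODE M21 transcripts on GRCm38:
Atp5g3: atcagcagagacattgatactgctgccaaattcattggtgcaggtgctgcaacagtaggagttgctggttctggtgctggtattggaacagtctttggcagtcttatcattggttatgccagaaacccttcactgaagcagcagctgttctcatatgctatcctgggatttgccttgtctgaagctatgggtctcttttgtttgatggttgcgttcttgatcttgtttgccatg
Atp5g1: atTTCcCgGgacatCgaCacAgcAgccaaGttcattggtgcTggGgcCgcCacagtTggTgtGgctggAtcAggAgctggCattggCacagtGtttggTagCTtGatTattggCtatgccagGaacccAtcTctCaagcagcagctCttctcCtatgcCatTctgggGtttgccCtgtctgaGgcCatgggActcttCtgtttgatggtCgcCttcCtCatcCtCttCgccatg
Atp5g2: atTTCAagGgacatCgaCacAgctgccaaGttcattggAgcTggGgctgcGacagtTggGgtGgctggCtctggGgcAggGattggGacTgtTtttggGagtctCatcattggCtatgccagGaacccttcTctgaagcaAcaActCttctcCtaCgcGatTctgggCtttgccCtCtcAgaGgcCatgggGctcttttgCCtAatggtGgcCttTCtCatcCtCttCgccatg
Atp5g1 differed from Atp5g3 at 50 of these bases and Atp5g2 at 53. The longest stretch shared with Atp5g3 at the same positions was 11 bases for Atp5g1 and 8 for Atp5g2. In the longest coding transcript of each gene, which covers only part of its annotated exons, 11.6% of 50-base words of Atp5g1, 14.8% of those of Atp5g2 and 0% of those of Atp5g3 also occurred in a transcript of another gene.

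The genes listed below 10 CPM included subunits that every respiring cell is known to use. Outside the families, 18 of 67 members were below 10 CPM. Among these, 11 (61.1%) had 2 or more curated RefSeq transcripts, against 10 of 49 (20.4%) at or above 10 CPM. The same direction was seen over the whole table: 32.2% of 12531 protein-coding genes with 1 curated transcript reached 10 CPM, and 15.7% of 7759 with 2 or more did. Atp5j, listed at 0.305 CPM, had 7 curated transcripts, Ndufs1 had 4, and Ndufs8 and Atp5c1 had 3. Exceptions ran in both directions, since Atp5g3 had 3 and was among the highest, and Ndufs6, Atp5l and Cyc1 had 1. Among the low forms within the families, Cox6b2 had 5, Cox4i1, Cox7a2l and Atp5g1 had 2, and the others had 1.

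Exon overlap with another gene was found for 9 of the 18 low members and 16 of the 49 others. More than 10% of 50-base words of the longest coding transcript shared with another gene was found for 5 of the 18 and 16 of the 49. Among the low members, Atp5l shared 84.8% of its words, Atp5f1 38.7% and Ndufb4 37.0%. Ndufv2, Ndufs8, Uqcrq and Cyc1 shared 0% and overlapped no exon. Among the members at or above 10 CPM, Atp5h (99.4 CPM) shared 47.9% and Ndufs3 (63.7 CPM) shared 39.7%. Only Cyc1 among the 18 had 1 curated transcript, no exon overlap and at most 10% shared words, against 23 of the 49 others. The part of these features in the low values was not tested, so a low value is given here only as what the table lists.

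**Figure D4:**
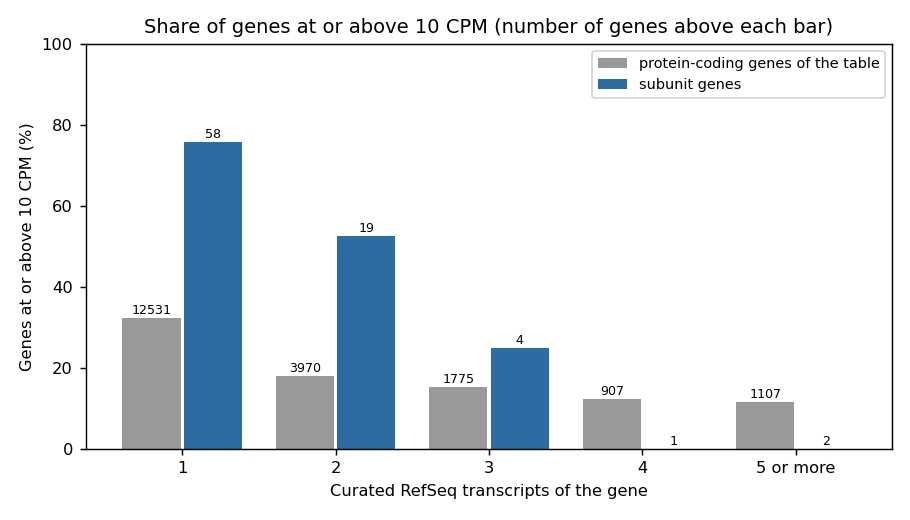
Share of genes (%) at or above 10 CPM by number of curated RefSeq transcripts, for protein-coding genes of the table (grey) and subunit genes (blue), with the number of genes above each bar. The share falls from 32.2% with 1 transcript to 11.6% with 5 or more, and among subunit genes from 44 of 58 with 1 to 10 of 19 with 2.

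The genes lie on 19 chromosomes, with 9 on chromosome 7 and 3 (Cox7b, Ndufa1 and Ndufb11) on the X. A RefSeq promoter window, 250 bases before to 50 after the annotated start, was matched for 69 of the 84. NRF-1 (nuclear respiratory factor 1) is known as a regulator of respiratory chain genes, as are ETS factors such as GABP. The letters GCGCANGCG, an NRF-1-type motif sought on both strands, occurred in 20 of 69 members (29.0%), compared with 11.9% of 13410 promoters of genes above the lowest value and 15.7% of 4244 at or above 10 CPM. The ETS-type letters CCGGAAGT, on both strands, occurred in 5 of 69 (7.25%), against 6.91% and 9.66%. Atp5h and Uqcr11 held both motifs.

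The NRF-1-type letters were found in 13 of 48 members at or above 10 CPM (27.1%) and 7 of 21 below it (33.3%). The windows of Atp5g3 (667 CPM), Ndufs6 (0.235 CPM) and Uqcr11 (1.25 CPM) are shown because they hold the letters at opposite ends of the listed levels. They are from RefSeq on GRCm38.p6, written in the direction of transcription, with matched letters in capitals:
Atp5g3 promoter (chr2:73911277-73911576, minus strand): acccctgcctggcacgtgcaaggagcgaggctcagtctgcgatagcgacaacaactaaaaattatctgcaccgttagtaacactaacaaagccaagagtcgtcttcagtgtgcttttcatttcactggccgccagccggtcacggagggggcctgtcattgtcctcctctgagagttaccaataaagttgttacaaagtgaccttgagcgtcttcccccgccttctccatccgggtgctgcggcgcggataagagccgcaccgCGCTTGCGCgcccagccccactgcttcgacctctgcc
Ndufs6 promoter (chr13:73328433-73328732, minus strand): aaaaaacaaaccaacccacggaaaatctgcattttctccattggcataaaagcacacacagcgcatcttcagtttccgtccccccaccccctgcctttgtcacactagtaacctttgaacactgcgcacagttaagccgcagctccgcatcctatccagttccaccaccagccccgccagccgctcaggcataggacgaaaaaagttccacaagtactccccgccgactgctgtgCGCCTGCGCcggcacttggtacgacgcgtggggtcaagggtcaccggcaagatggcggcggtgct
Uqcr11 promoter (chr10:80406772-80407071, minus strand): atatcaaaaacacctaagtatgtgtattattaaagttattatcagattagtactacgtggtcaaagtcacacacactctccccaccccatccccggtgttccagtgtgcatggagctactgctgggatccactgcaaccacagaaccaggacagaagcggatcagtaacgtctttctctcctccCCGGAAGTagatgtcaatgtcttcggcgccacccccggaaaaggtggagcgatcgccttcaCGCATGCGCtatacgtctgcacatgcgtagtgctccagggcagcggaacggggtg
The matches of Uqcr11 to the NRF-1-type and ETS-type letters shared 0 bases. A match is a description of the letters, not evidence of binding.

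Of 43 assembly factors, which build the complexes without staying in them, 42 were analysed, 12 of them under an older symbol. The 37 above the lowest value had a median of 12.7 CPM per kilobase, 4.88-fold below that of the subunits, and 22 of 42 (52.4%) reached 10 CPM. The highest per kilobase were Coa3 (90.7 CPM, listed as Ccdc56) and Cox14 (76.7 CPM, listed as 2310016M24Rik). The lowest per kilobase were Uqcc1, listed as Uqcc, and Ndufaf2, both at the lowest value.

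Related genes outside the symbol rule were low to moderate. Ndufab1, the acyl carrier protein that is also part of complex I, was listed at 5.73 CPM. Usmg5, a small ATP synthase subunit, stood at 24.1 CPM, and Ndufa4l2, a relative of Ndufa4, at 12.7 CPM. Cycs, cytochrome c, stood at 12.1 CPM and its testis form Cyct at 0.229 CPM. Among 8 regulators, Esrra was the only one at or above 10 CPM (28.4 CPM), followed per kilobase by Tfam (1.96 CPM per kilobase). Nrf1, which had 10 curated transcripts, was listed at 0.324 CPM, and Ppargc1a at the lowest value. The 13 subunits encoded in mitochondrial DNA were not analysed here.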

How the data were processed

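Polyadenylated RNA from 12 whole fetal livers, 6 per diet, was sequenced. Per the labels and the study's methods, the authors trimmed reads with cutadapt 1.2.1, used Subread 1.3.6-p1 for alignment to the mm10 mouse genome, and compared the diets in edgeR. How reads were assigned to genes and transcripts is not given in the sources used here. The deposited log2 values are the authors' average log2 CPM per gene over all livers of both diets. The other deposited columns hold the authors' comparison of the diets under common and tagwise dispersion (fold changes, p-values and false discovery rates) and were not used. No column gives single livers, so the planned test of diet was not run, and no replicate error exists. Total counts are unknown. If the authors kept edgeR's default prior count of 2, the lowest value (-2.71 log2 CPM) corresponds to about 13100000 reads per liver, and 10 CPM to about 131 reads.

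CPM was read back as 2 to the deposited value. Lengths were unions of exons in GENCODE M21 (GRCm38, also named mm10), with curated transcripts and promoters from RefSeq GRCm38.p6. All 84 members and 22875 rows had a length. Words of 50 bases of each member's longest coding transcript were sought in the transcripts of other genes. Python 3.11.15, pandas 2.3.3, Biopython 1.88 and matplotlib 3.10.9 were used, and the calculations were tested on simulated data.

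Members and gene lists were chosen with earlier results of these data known. Genes were named by rule: in each complex the 3 highest and 3 lowest per kilobase at or above 1 CPM, core, F1 and alternative-form members, those below 1 CPM and non-structural ones, and from other lists the 2 highest and 2 lowest, with all related genes. Atp5h, and which genes' sequences and sequence features were given, were chosen after the values were seen. A member that the rule names is not reported here. Alternatives were other lengths, filters and backgrounds.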

Additional observations from a re-analysis of the deposited data

How the results depend on the processing

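For 19 reported values, 64 alternative settings were computed. A value with no replicate error was taken as unchanged when it moved by less than 1.5 times, which held for 41. The 77 members above the lowest value had a median of 62.2 CPM per kilobase of exon, which became 95.8 per kilobase of the longest transcript, 206 per kilobase of coding sequence and 96.0 with members at or above 10 CPM only. With the longest transcript, the medians were 95.8 for complex I, 197 for II and 170 for III. With coding sequence, they were 195 for complex I, 426 for II, 285 for III, 270 for IV and 75.4 for V. With members at or above 1 CPM, they were 141 for complex IV and 62.2 for V, and at or above 10 CPM 164 for III, 200 for IV and 106 for V. With structural subunits only, complex V had 56.3. Counting members at the lowest value too, a setting chosen after seeing the data, gave 11.3 for complex IV and 1.23 for V. Cox4i2 over Cox4i1 turned from 1.32-fold to 0.701-fold per kilobase of the longest transcript and to 0.621-fold with the lowest value subtracted. Atp5g3 over Atp5g1 became 2655-fold with the longest transcript, and Cox8a over Cox8b 793-fold with the lowest value subtracted. The counts of members at or above 10 CPM and below 1 CPM, the ratio to assembly factors and both motif ratios moved by less than 1.5 times. The ETS-type ratio still crossed 1, from 1.05 against genes above the lowest value to 0.750 against genes at or above 10 CPM. The ratio to assembly factors was varied only by keeping genes at or above 1 CPM (5.78-fold), not by other lengths. The count at or above 10 CPM could hardly change, because its alternatives took away 0.152 CPM or members below 10 CPM. The alternatives to the test of diet (DESeq2, no filter on low counts and leaving out each liver) were not run. No paired analysis was possible because no column gives single livers. Depth is unknown, so levels near 0.152 CPM cannot be told from no reads.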
